A study of Homo sapiens with 12 samples.

Results

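The 37 genes of the human mitochondrial genome that the deposited gene counts list under symbols beginning with MT- are described here, out of 40605 genes in the merged count table. The rule is that symbol alone, and the set of genes was taken up with earlier results of these data known. They comprise 2 ribosomal RNA (rRNA) genes, 13 protein-coding (mRNA) genes and 22 transfer RNA (tRNA) genes. All of them lie on chrM of GRCh38. The annotation places 28 on the plus strand and 9 on the minus strand. The minus-strand genes are MT-ND6 and 8 tRNA genes.

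The cells were A549, an established line from a human lung adenocarcinoma, with a DYRK1B gene that doxycycline switches on. DYRK1B is a protein kinase, and a first line carried its wild-type form (WT) and a second the Y273F mutant, with phenylalanine in place of a tyrosine. Each line was cultured for 7 days without the drug (control) or with 2 µg/ml doxycycline, with 3 libraries in each of the 4 groups. All groups share the A549 background and an inducible transgene, and a line with no transgene was not analysed here, so effects of doxycycline and of DYRK1B cannot be told apart. The series text describes separate cell populations kept in parallel. The p-values rest on the spread between libraries titled alike, which includes the large differences within groups described below.

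Mitochondrial DNA is transcribed on both strands by a dedicated RNA polymerase into long precursor RNAs that span most of the genome. tRNA sequences lie between most of the rRNA and mRNA genes, and their excision releases the neighbouring RNAs, most of which then receive a poly(A) tail. The plus-strand genes, encoded on the heavy strand, include both rRNAs and nearly all mRNAs. The minus strand, encoded on the light strand, holds few genes, and most of its long noncoding transcript is normally degraded soon after it is made.

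The libraries were made from 3′ tags: reads start near the poly(A) tail and keep the strand of their RNA. DYRK1B itself was at 5.76, 3.09 and 5.41 in WT control, 26.8, 4.05 and 7.71 in WT doxycycline, 2.63, 12.5 and 3.23 in Y273F control and 4.62, 4.85 and 19.8 in Y273F doxycycline, in CPM, counts scaled to 1000000 gene counts per library. The WT doxycycline 2 library and the Y273F doxycycline 1 and 2 libraries were within the range of the controls of their own line, and Y273F control 2 was above WT doxycycline 2 and 3. The sources used here do not say whether the transgene carries the gene's own 3′ end, on which such counts rest. DYRK1B counts do not follow the titles, and whether each library is the culture its title names cannot be told from these files. Every value given by group therefore holds for the titles as deposited, and "WT control 2" means the library labelled so. The total of gene counts ranged from 2815673 to 22319921 per library, so that 3 counts equal 0.134 to 1.07 CPM. In a principal component analysis of the 500 most variable genes, component 1 held 66.3% of the variance and set WT control 2, WT doxycycline 3 and Y273F doxycycline 1 (42.7 to 46.9) apart from the other 9 libraries (−20.0 to −4.74). The 5 epithelial markers together had 3507 to 13390.3 CPM, the 6 fibroblast and smooth muscle markers 28.9 to 231 CPM, the 4 leukocyte markers 0.272 to 3.94 CPM and the 3 endothelial markers at most 0.582 CPM.

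The library numbers in the labels run from 1 to 12, and the values are also given by sets of 3 library numbers. Set 1/5/9 holds WT control 1, WT doxycycline 2 and Y273F control 3. Set 2/6/10 holds WT control 2, WT doxycycline 3 and Y273F doxycycline 1, the libraries that stood apart above. Set 3/7/11 holds WT control 3, Y273F control 1 and Y273F doxycycline 2, and set 4/8/12 holds WT doxycycline 1, Y273F control 2 and Y273F doxycycline 3. The sets cut across the titles' groups, the labels give no condition for them, and they were chosen with results of these data known. Values by set are descriptions with no test, and no condition is read from them. DYRK1B was at 12.5 to 26.8 CPM in the 3 libraries of set 4/8/12 and at 2.63 to 7.71 CPM in the other 9.

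Reads of such libraries gather towards the 3′ end of an RNA, so the ends of the mRNA genes are shown. For MT-ATP8 and MT-ND4L, which share an mRNA with the next gene, the end of the gene is not that of the RNA. In the other genes, too, the annotated end need not be that of the RNA. Beyond the end of MT-ND5, for example, 9157 plus-strand counts lay opposite to MT-ND6 over the 12 libraries. The last 30 bases of the 13 mRNA genes are shown 5′ to 3′ on the gene's own strand, with the bases that code the stop codon in capitals. Where those capitals are a lone T, or T and A, the codon is completed by the poly(A) tail.
MT-ND1 (plus strand, chrM:4233-4262): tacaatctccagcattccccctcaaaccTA
MT-ND2 (plus strand, chrM:5482-5511): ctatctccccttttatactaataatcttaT
MT-CO1 (plus strand, chrM:7416-7445): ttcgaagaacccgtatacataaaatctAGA
MT-CO2 (plus strand, chrM:8240-8269): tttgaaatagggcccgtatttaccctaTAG
MT-ATP8 (plus strand, chrM:8543-8572): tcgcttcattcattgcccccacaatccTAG
MT-ATP6 (plus strand, chrM:9178-9207): gtaagcctctacctgcacgacaacacaTAA
MT-CO3 (plus strand, chrM:9961-9990): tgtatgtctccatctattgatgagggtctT
MT-ND3 (plus strand, chrM:10375-10404): gactacaaaaaggattagactgaaccgaaT
MT-ND4L (plus strand, chrM:10737-10766): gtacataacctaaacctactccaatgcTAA
MT-ND4 (plus strand, chrM:12108-12137): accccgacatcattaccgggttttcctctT
MT-ND5 (plus strand, chrM:14119-14148): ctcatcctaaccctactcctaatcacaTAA
MT-ND6 (minus strand, chrM:14149-14178): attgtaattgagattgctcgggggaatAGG
MT-CYB (plus strand, chrM:15858-15887): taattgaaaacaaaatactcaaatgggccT

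Of the 13 mRNA genes, 7 end in a full stop codon, 3 of them TAA, 2 TAG and 2 AGA or AGG, and 6 end in 1 or 2 bases of one. MT-ND6, the minus-strand mRNA, and MT-CO1 have the AGG and AGA ends. Each of these 2 genes adjoins a gene of the other strand: MT-CO1 ends beside MT-TS1, and MT-ND6 meets MT-ND5 end to end.

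The 4 tRNA genes with a mean of at least 5 CPM all lie on the minus strand. Their sequences are shown because their counts differed between library sets, as described further on. Capitals mark the longest run of A, or the first such run where another is as long, as in MT-TC and MT-TP. The runs are of 5 bases in MT-TS1, 3 in MT-TC and MT-TP and 2 in MT-TQ. Runs of 6 bases in MT-TG and 5 in MT-TL2 lie in genes with no count in any library. Whether the runs bear on the counts was not tested.
MT-TQ (minus strand, chrM:4329-4400): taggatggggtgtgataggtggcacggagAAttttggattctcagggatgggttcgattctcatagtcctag
MT-TC (minus strand, chrM:5761-5826): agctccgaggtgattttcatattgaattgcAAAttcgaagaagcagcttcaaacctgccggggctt
MT-TS1 (minus strand, chrM:7446-7514): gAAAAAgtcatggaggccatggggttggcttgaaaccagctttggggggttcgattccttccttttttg
MT-TP (minus strand, chrM:15956-16023): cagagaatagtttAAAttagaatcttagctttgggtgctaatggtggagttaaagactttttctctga

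A549 mitochondrial transcripts took 3.47% to 6.32% of the gene counts. The share was 4.12, 5.29 and 5.77 in WT control, 6.32, 3.47 and 4.88 in WT doxycycline, 3.82, 4.41 and 3.76 in Y273F control and 4.73, 3.86 and 4.15 in Y273F doxycycline, in percent. WT control 3 and WT doxycycline 1 were highest, the Y273F control libraries were between 3.76% and 4.41%, and WT control 2 and 3 lay above every Y273F library, though the ranges of the 4 groups overlapped. The 95% Wilson interval of each share was narrow (3.46% to 3.48% in the lowest library and 6.31% to 6.34% in the highest) and covers counting error only. Because these are shares of polyadenylated RNA in bulk cultures, fewer or more cells of a kind and less or more RNA per cell cannot be told apart.

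**Figure D1:**
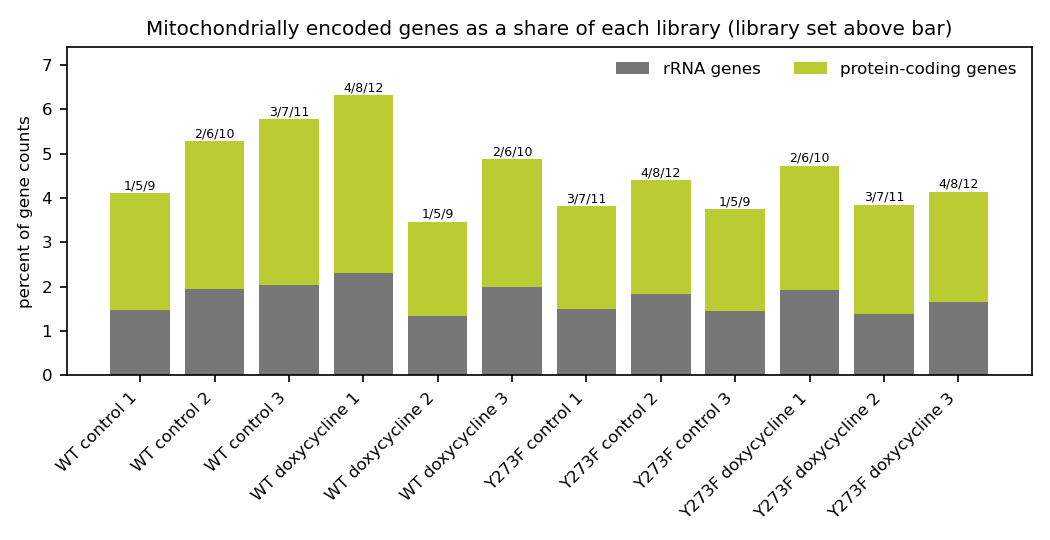
Percent of gene counts (vertical axis) in mitochondrial rRNA genes (grey) and protein-coding genes (green) in each of the 12 libraries, with the library set above each bar; tRNA genes, at most 0.0143% of counts, are not drawn. WT control 3 (5.77%) and WT doxycycline 1 (6.32%) are the highest bars and WT doxycycline 2 (3.47%) the lowest.

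The split of this share between rRNA and mRNA genes varied less than its size. The 2 rRNA genes gave 35.3% to 41.7% of the mitochondrial counts and the 13 mRNA genes 58.0% to 64.5%. Together the tRNA genes had 52.0 to 143 CPM. Some single members varied more: MT-ATP8 made up 0.182% to 0.587% of mitochondrial counts and MT-ND6 0.0329% to 0.113%. Others varied little, such as MT-CYB (5.58% to 7.02%).

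The rRNAs, the RNA cores of the 2 subunits of the mitochondrial ribosome, are encoded by MT-RNR1 and MT-RNR2. MT-RNR2, the 16S rRNA of the large subunit (chrM:1671-3229), was at 12910.3, 16985 and 18486 in WT control, 20389, 11737 and 17266 in WT doxycycline, 13192, 15737 and 12807 in Y273F control and 16681, 12255 and 14210.0 in Y273F doxycycline (CPM). It held 31.4% to 35.7% of all mitochondrial counts. MT-RNR1, the 12S rRNA of the small subunit (chrM:648-1601), was at 1816, 2589 and 1923 in WT control, 2753, 1634 and 2616 in WT doxycycline, 1764, 2661 and 1755 in Y273F control and 2564, 1588 and 2426 in Y273F doxycycline (CPM). All 6 libraries of sets 2/6/10 and 4/8/12 were at 2426 to 2753 CPM of MT-RNR1, and all 6 of the other sets at 1588 to 1923 CPM. The groups of the titles overlapped for both genes. The ratio of MT-RNR2 to MT-RNR1 counts was 5.86 to 9.61. It was highest in WT control 3, which had an MT-RNR2 level of 18486 CPM with MT-RNR1 among the lower libraries.

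Per kilobase of gene length, the scale used here to set genes side by side, MT-ND3 had the highest mean over the 12 libraries, 14704 CPM per kilobase, above MT-RNR2 with 9763. MT-ATP6 (8126), MT-CO2 (7140.3) and MT-CO3 (5674) followed, then MT-CYB (2499), MT-RNR1 (2279), MT-ND4 (1592) and MT-ND2 (1035). MT-ATP8 (833), MT-ND1 (807) and MT-ND4L (794) lay close together, and MT-CO1 (278), MT-ND5 (156) and MT-ND6 (61.5) were lowest among the mRNAs. A tag read marks an RNA's end whatever its length, so division by length favours short genes such as MT-ND3. RNA without a poly(A) tail is missed, and reads beyond an annotated end are not counted in the gene. The order is thus one of counts and not of RNA abundance, also for MT-CO1, MT-ND5 and MT-ND6.

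**Figure D2:**
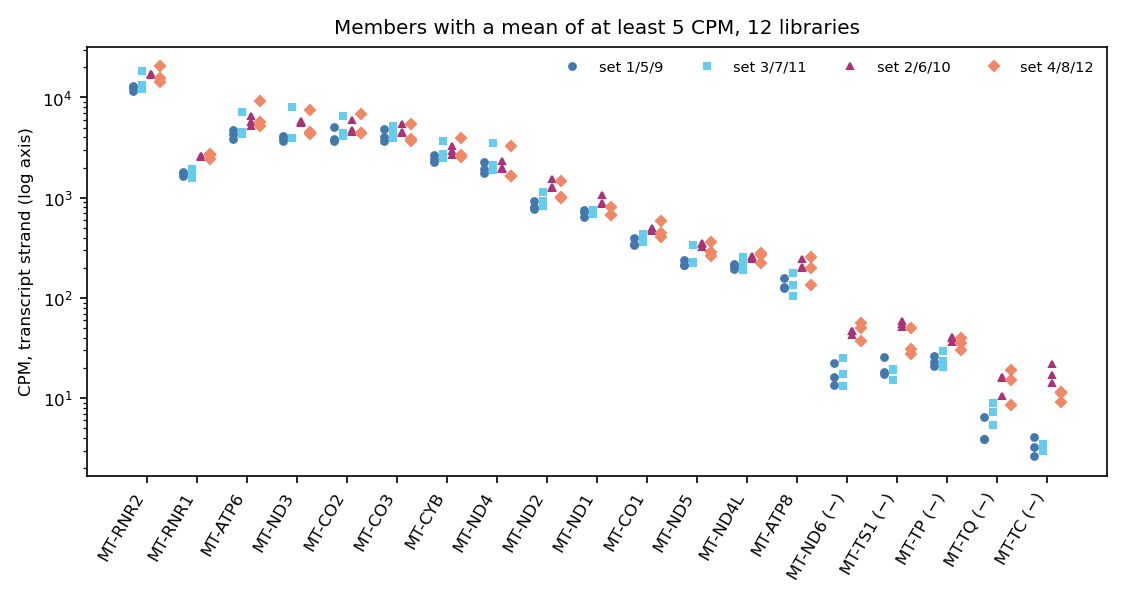
CPM on the transcript strand (vertical log axis) of the 19 members with a mean of at least 5 CPM, each point 1 library, coloured by library set; minus-strand genes carry a minus sign. The 5 minus-strand genes lie under 60 CPM, and their libraries of sets 2/6/10 and 4/8/12 lie above those of the other sets, except that MT-TQ overlaps (8.48 to 18.9 against 3.94 to 8.87 CPM).

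Complex I, the NADH dehydrogenase that starts the respiratory chain, has 7 mitochondrially encoded subunits. MT-ND1 (chrM:3307-4262), a membrane subunit beside the quinone site, was at 749, 1067 and 744 in WT control, 808, 645 and 887 in WT doxycycline, 689, 666 and 714 in Y273F control and 865, 761 and 668 in Y273F doxycycline (CPM). MT-ND2 (chrM:4470-5511), a subunit of the proton-pumping membrane arm, was at 936, 1529 and 1142 in WT control, 1469, 771 and 1292 in WT doxycycline, 821, 1018 and 799.8 in Y273F control and 1239, 927 and 1004 in Y273F doxycycline (CPM). For both, WT control 2 was the highest library. The 3 WT control libraries of MT-ND1 lay above the 3 Y273F control libraries, while the MT-ND2 groups overlapped in every comparison.

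MT-ND3 (chrM:10059-10404), a small membrane subunit, was at 4104, 5718 and 8092 in WT control, 7503, 3649 and 5532 in WT doxycycline, 3955, 4490.3 and 3961 in Y273F control and 5773, 3971 and 4301 in Y273F doxycycline (CPM). WT control 3 and WT doxycycline 1 were highest, and all groups overlapped. MT-ND4 (chrM:10760-12137), a proton-pumping subunit, was at 2297, 2317 and 3523 in WT control, 3267, 1778 and 1969 in WT doxycycline, 1881, 1664 and 1941 in Y273F control and 1921, 2116 and 1654 in Y273F doxycycline (CPM). The same 2 libraries were highest, and the Y273F control libraries, at 1664 to 1941 CPM, lay below the WT control libraries. MT-ND4L (chrM:10470-10766), whose last 7 bases are the first of MT-ND4 and which is carried on the same mRNA, was at 218, 257 and 259 in WT control, 272, 210.1 and 246 in WT doxycycline, 224, 278 and 196 in Y273F control and 260.0, 190.4 and 222 in Y273F doxycycline (CPM). Its highest library was only 1.46 times its lowest, the smallest ratio of the tested members.

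MT-ND5 (chrM:12337-14148), the largest of the mitochondrially encoded proteins, was at 240.1, 350.4 and 334 in WT control, 366, 211 and 346 in WT doxycycline, 229, 286 and 211 in Y273F control and 326, 224 and 261 in Y273F doxycycline (CPM). WT doxycycline 1 was highest and the groups overlapped. MT-ND6 (chrM:14149-14673), the minus-strand member of complex I, was at 13.5, 46.8 and 25.3 in WT control, 56.1, 16.4 and 46.7 in WT doxycycline, 17.3, 49.9 and 22.3 in Y273F control and 43.0, 13.4 and 36.9 in Y273F doxycycline (CPM). Each group held at least 1 library of 36.9 CPM or more and at least 1 of 25.3 CPM or less, so that the groups overlapped.

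Complex III, the cytochrome bc1 complex, has 1 mitochondrially encoded subunit, the cytochrome b gene MT-CYB (chrM:14747-15887). It was at 2646, 3294 and 3721 in WT control, 3905, 2255 and 2909 in WT doxycycline, 2484, 2663 and 2422 in Y273F control and 2643, 2707 and 2559.7 in Y273F doxycycline (CPM). WT control 3 and WT doxycycline 1 were highest, and the groups overlapped.

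Complex IV, cytochrome c oxidase, has its 3 catalytic-core subunits encoded here. MT-CO1 (chrM:5904-7445), which holds the oxygen-reducing site, was at 397, 499.9 and 438 in WT control, 589, 337 and 468 in WT doxycycline, 366, 444 and 349 in Y273F control and 483, 366 and 408 in Y273F doxycycline (CPM). MT-CO2 (chrM:7586-8269), which accepts electrons from cytochrome c, was at 5070.4, 5989 and 6491 in WT control, 6919, 3706 and 4721 in WT doxycycline, 4091, 4401 and 3877 in Y273F control and 4551, 4414 and 4378 in Y273F doxycycline (CPM). MT-CO3 (chrM:9207-9990), a core membrane subunit, was at 4824, 5396 and 5240.4 in WT control, 5442, 3693 and 4378 in WT doxycycline, 3986, 3658 and 4058 in Y273F control and 4510.1, 4375 and 3816 in Y273F doxycycline (CPM). In MT-CO2 and MT-CO3 every WT control library lay above every Y273F control library, and in MT-CO1 these groups overlapped. The doxycycline and control libraries of each line overlapped in all 3 genes.

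Complex V, the ATP synthase, takes 2 membrane subunits from the mitochondrial genome. MT-ATP6 (chrM:8527-9207), the subunit of the proton channel, was at 4729, 6487 and 7156 in WT control, 9264, 3870.0 and 5748 in WT doxycycline, 4285, 5717 and 4301 in Y273F control and 5146, 4476 and 5228 in Y273F doxycycline (CPM). MT-ATP8 (chrM:8366-8572), a small accessory subunit, was at 159, 205 and 105 in WT control, 134, 125 and 243 in WT doxycycline, 178, 259 and 128 in Y273F control and 199, 135 and 201 in Y273F doxycycline (CPM). WT doxycycline 1 was highest for MT-ATP6 and Y273F control 2 for MT-ATP8. The ratio of MT-ATP6 to MT-ATP8 counts was 68.2 in WT control 3 and 69.1 in WT doxycycline 1, and 22.1 to 33.6 in the other 10 libraries. Both proteins are read from a shared mRNA, and their genes overlap by 46 bases, where a read fits both genes. That overlap, chrM:8527-8572 on the plus strand, is shown with the start codon of MT-ATP6 and the stop codon of MT-ATP8 in capitals.
MT-ATP8 and MT-ATP6 overlap: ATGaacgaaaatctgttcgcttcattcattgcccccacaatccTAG

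Of the 22 tRNA genes, 10 had no count on their own strand in any library, 9 of them on the plus strand and MT-TN on the minus strand. A count of 0 allows up to 3 counts, 0.134 CPM in the deepest library. Another 8 had counts with a mean under 5 CPM. Of these, MT-TT, the tRNA for threonine, ranged from 0.985 to 5.84 CPM and the other 7 did not exceed 2.45 CPM. Most tRNA counts came from the minus strand: minus-strand tRNA genes had 48.0 to 139 CPM together and plus-strand tRNA genes 3.91 to 7.96 CPM. Mature tRNAs end in CCA without a poly(A) tail, so a 3′ tag method is not a measure of their abundance.

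MT-TS1 (chrM:7446-7514), the gene of a serine tRNA, was at 25.7, 54.8 and 15.1 in WT control, 27.4, 18.3 and 51.5 in WT doxycycline, 19.0, 49.9 and 17.4 in Y273F control and 59.3, 19.4 and 30.7 in Y273F doxycycline (CPM). MT-TP (chrM:15956-16023), the proline tRNA, was at 26.5, 39.7 and 29.4 in WT control, 40.2, 20.7 and 36.2 in WT doxycycline, 23.6, 35.8 and 22.8 in Y273F control and 40.8, 20.4 and 30.5 in Y273F doxycycline (CPM). In both genes each group held high and low libraries and the groups overlapped. MT-TQ (chrM:4329-4400), the glutamine tRNA, was at 3.95, 10.6 and 8.87 in WT control, 18.9, 3.94 and 16.2 in WT doxycycline, 7.26, 15.1 and 6.50 in Y273F control and 16.0, 5.43 and 8.48 in Y273F doxycycline (CPM), and MT-TC (chrM:5761-5826), the cysteine tRNA, at 3.27, 14.1 and 3.14 in WT control, 9.26, 4.15 and 17.2 in WT doxycycline, 3.00, 11.5 and 2.64 in Y273F control and 22.0, 3.49 and 11.3 in Y273F doxycycline (CPM). MT-TC was at 9.26 to 22.0 CPM in the 6 libraries of sets 2/6/10 and 4/8/12 and at 2.64 to 4.15 CPM in the other 6.

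The library sets thus separated the minus-strand members. In sets 2/6/10 and 4/8/12 together every library was above every library of sets 1/5/9 and 3/7/11 for 4 of the 5 minus-strand members tested (MT-TC, MT-TS1, MT-ND6 and MT-TP) and for 1 of the 16 plus-strand members tested (MT-RNR1). This joining of sets was chosen after the values were seen. Of all 13838 genes tested, 3.03% were higher in the same way. MT-ND6 had a mean of 45.5 CPM in set 2/6/10 and 47.6 CPM in set 4/8/12, against 17.4 CPM in set 1/5/9 and 18.7 CPM in set 3/7/11.

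Taken set by set, 15 of the 21 tested members, 10 of 16 plus-strand and 5 of 5 minus-strand ones, were higher without overlap in set 2/6/10 than in set 1/5/9, where 26.4% of all genes tested were higher and 28.1% lower. The median ratio of means was 1.34 for the plus-strand members, 2.70 for the minus-strand members and 0.980 for all genes. The cell type markers differed between the same sets. The 5 epithelial markers summed to 10126.5 to 13390.3 CPM in set 2/6/10 and 4399.5 to 4541 CPM in set 1/5/9: KRT8, KRT18 and KRT7 were higher, EPCAM and CDH1 lower. The 6 fibroblast and smooth muscle markers summed to 171 to 231 CPM against 31.4 to 39.0 CPM, nearly all of it COL1A1 and ACTA2. The 4 leukocyte markers summed to 0.355 to 1.32 CPM against 3.42 to 3.94 CPM, mostly LYZ in the latter, with CD3E at 0 in all libraries. The part of these differences in the members' values was not tested. In set 4/8/12 against set 3/7/11, 5 members were higher, 4 of them on the minus strand, beside 7.81% of all genes. Here the median ratio was 1.10 for the plus-strand members and 2.02 for the minus-strand members. Between these sets the epithelial sums were 4581 to 5566 against 3507 to 4397 CPM. KRT8, KRT18 and KRT7 had higher means, EPCAM was lower (4.49 to 8.27 against 11.8 to 16.9 CPM) and CDH1 had means of 55.6 and 57.5 CPM. The fibroblast and smooth muscle sums were 44.0 to 52.0 against 28.9 to 30.8 CPM, with COL1A1 higher and ACTA2 overlapping. The leukocyte sums were 0.272 to 1.31 against 1.41 to 3.63 CPM, with LYZ lower and CD68, at most 1.31 CPM, higher in mean. The part of these differences was not tested either. In set 3/7/11 against set 1/5/9 no member was higher or lower without overlap, beside 8.46% and 10.9% of all genes. MT-ND1, MT-TC and MT-TS1 were higher in set 2/6/10 than in set 4/8/12, beside 25.5% of all genes. Each set has 3 libraries of 3 different titles.

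The deposited files also count reads on the strand opposite to each gene, so that the RNA of the minus strand can be followed across the plus-strand genes. Opposite to MT-ND5, reads were at 49.7, 135 and 49.6 in WT control, 159.7, 42.0 and 135 in WT doxycycline, 55.6, 127 and 49.9 in Y273F control and 134, 50.6 and 102 in Y273F doxycycline (CPM). All 6 libraries of sets 2/6/10 and 4/8/12 were at 102 CPM or above, and the other 6 at 55.6 CPM or below. Opposite to MT-ND1 the corresponding libraries were at 42.5 to 60.4 CPM and at 12.1 to 20.6 CPM, and opposite to MT-ND4 at 37.4 to 66.4 CPM and at 19.9 to 24.8 CPM. Opposite to MT-CYB they were at 33.5 to 62.2 CPM and at 15.0 to 24.2 CPM.

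Of the 9 plus-strand members with a mean of at least 5 CPM on the opposite strand, 6 (MT-ND1, MT-ND2, MT-CO3, MT-ND4, MT-ND5 and MT-CYB) were higher in every library of sets 2/6/10 and 4/8/12 than in every library of the other sets, beside 2.69% of the 1340 genes with such a mean. MT-CO1, MT-CO2 and MT-TI overlapped. In MT-CO1, Y273F control 3 was at 44.6 CPM, above Y273F doxycycline 3 at 39.6 CPM, while the other libraries of sets 1/5/9 and 3/7/11 were at 13.1 to 17.5 CPM. Set against set, 9 of 9 were higher in set 2/6/10 than in set 1/5/9, beside 21.9% of such genes. Likewise 7 of 9 were higher in set 4/8/12 than in set 3/7/11, beside 7.69%. Some of these reads were also counted in minus-strand members. MT-TI had 800 opposite counts and MT-TQ, which it overlaps, 861 on its own strand, and both had 0 in the counts without strand. MT-CO1, MT-ND5 and MT-CYB shared a part of their reads, and MT-ND1, MT-ND2, MT-CO2, MT-CO3 and MT-ND4 shared none.

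**Figure D3:**
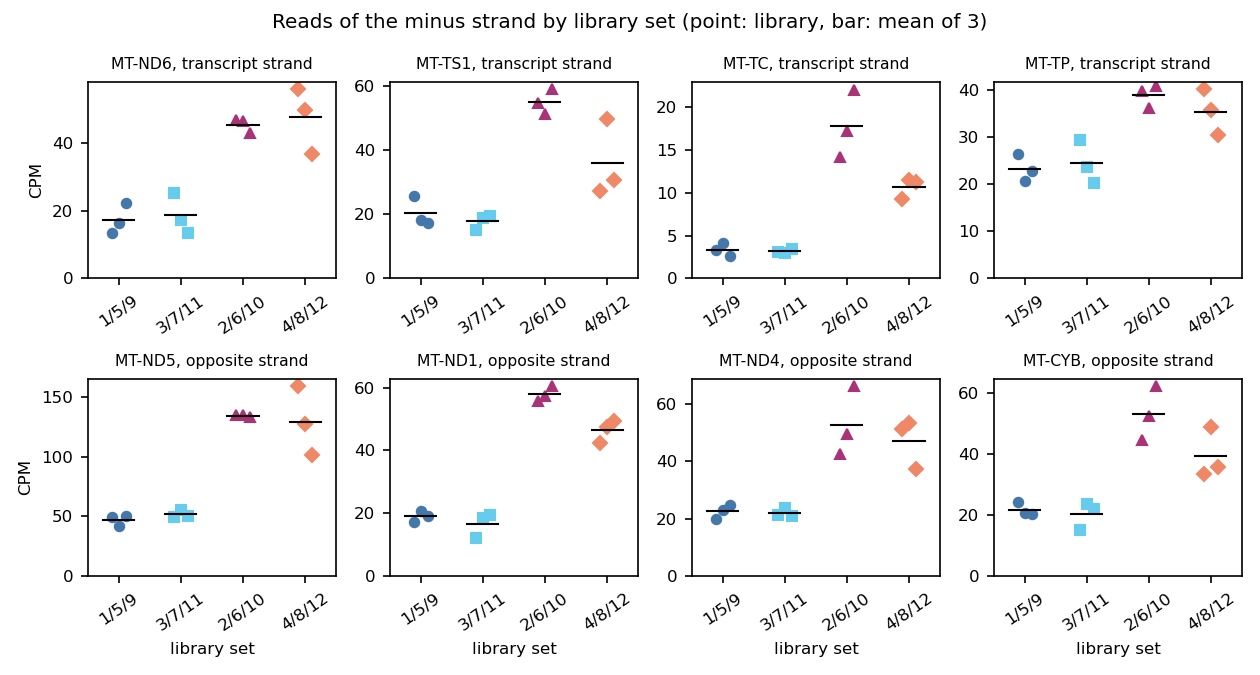
CPM (vertical axes, from 0) of reads of the minus strand by library set: the upper row shows 4 minus-strand genes on their own strand and the lower row the strand opposite to 4 plus-strand genes; each point is 1 library and each bar the mean of 3. The genes were picked from those that separate the sets (MT-TQ on its own strand and MT-CO1, MT-CO2 and MT-TI on the opposite strand overlap and are not drawn), so that in every panel the 6 libraries of sets 2/6/10 and 4/8/12 lie above the 6 of sets 1/5/9 and 3/7/11, as in MT-TC (9.26 to 22.0 against 2.64 to 4.15 CPM).

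Reads opposite to the 2 minus-strand genes with such levels, which are reads of the plus strand, showed no such split. Opposite to MT-ND6, downstream of the annotated end of MT-ND5, they were at 115, 95.8 and 148 in WT control, 88.5, 86.1 and 89.9 in WT doxycycline, 90.8, 71.9 and 84.7 in Y273F control and 82.8, 94.5 and 69.9 in Y273F doxycycline (CPM). WT control 3 was highest, and sets 2/6/10 and 4/8/12 (69.9 to 95.8 CPM) overlapped with the others (84.7 to 148 CPM). The WT controls (95.8 to 148 CPM) lay above WT doxycycline (86.1 to 89.9 CPM), as controls did for 2.39% of the genes with such a mean, and above the Y273F controls (71.9 to 90.8 CPM), beside 5.07%. Set 4/8/12 (69.9 to 88.5 CPM) lay below set 3/7/11, beside 8.28%. Opposite to MT-TP, beyond the end of MT-TT, they were at 59.5 to 176 CPM and overlapped likewise.

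Summed over all 37 genes, reads of the minus strand were at 237, 585 and 227 in WT control, 598, 221 and 624 in WT doxycycline, 256, 584 and 274 in Y273F control and 677, 246 and 455 in Y273F doxycycline CPM. The 6 libraries of sets 2/6/10 and 4/8/12 were at 455 to 677 CPM and the other 6 at 221 to 274 CPM. Each group of the titles held libraries of both levels, and the groups overlapped. As a share of the mitochondrial reads of both strands this was 0.569, 1.09 and 0.390 in WT control, 0.937, 0.629 and 1.26 in WT doxycycline, 0.663, 1.31 and 0.721 in Y273F control and 1.41, 0.632 and 1.08 in Y273F doxycycline, in percent. Sets 2/6/10 and 4/8/12 were at 0.937% to 1.41% and the others at 0.390% to 0.721%.

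**Figure D4:**
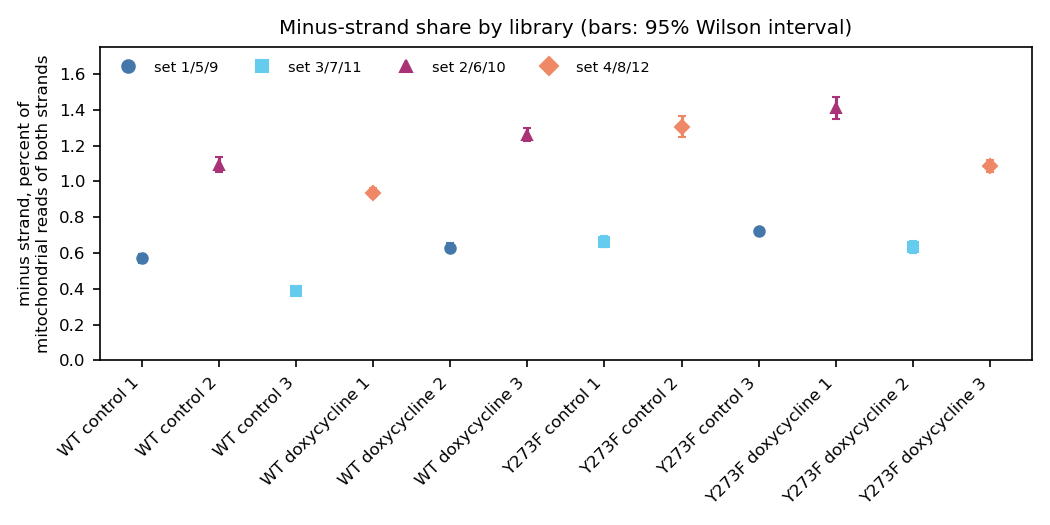
Reads of the minus strand as a percent of mitochondrial reads of both strands (vertical axis, from 0) in each library, coloured by library set, with 95% Wilson intervals for counting error. The 6 libraries of sets 2/6/10 and 4/8/12 lie at 0.937% to 1.41%, above the other 6 at 0.390% to 0.721%, within every group of the titles.

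A read that touches genes of both strands enters this sum in both genes: in the counts without strand, 13.1% of the reads of MT-ND5 and 37.2% of those of MT-ND6 were assigned to no gene. In the 9 plus-strand mRNA genes that share no read with a gene of the other strand, opposite reads were at 146 to 215 CPM in sets 2/6/10 and 4/8/12 and at 52.8 to 88.5 CPM in the others. Opposite to the rRNA genes there were 0 to 18 counts per library, at most 0.00954% of the counts of both strands there. Over all 12 libraries the opposite strand held 0.000559% of the counts of MT-RNR2 and 22.6% of those of MT-ND5. Over all genes of the files the opposite strand held 7.68% to 8.07% of counts in set 2/6/10, above every library of sets 1/5/9 (7.47% to 7.59%) and 3/7/11 (7.35% to 7.51%), and 7.25% to 7.82% in set 4/8/12, which overlapped with them. Whether that share, library depth or another property of the libraries has a part in the split of minus-strand reads was not tested; totals were 2815673 to 9315960 in the 6 libraries with more minus-strand reads and 5153271 to 22319921 in the other 6.

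The study's main question, as its series text states it, is what inducing each form of DYRK1B does to transcripts. Of the 37 members, 21 passed the filter on low counts and were tested: both rRNAs, all 13 mRNAs and 6 tRNAs, 16 of them on the plus strand. In the WT line with doxycycline against control, no member passed edgeR's quasi-likelihood test at a Benjamini-Hochberg adjusted p under 0.05, and 0.0% of all 13838 genes did. At an unadjusted p under 0.05 there were 134 genes and 0 members. By DESeq2 the count called was 0 (116 genes at an unadjusted p under 0.05), and by limma-voom 0 (158 genes). The median log2 fold change of the 21 members was 0.01 and that of all genes −0.00, with 11 members and 49.6% of all genes above 0. The members' median was 0.03 without the 3 libraries that stood apart. It was −0.16 without WT control 3 and WT doxycycline 1, the libraries of highest mitochondrial share, a choice made after seeing the data.

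The 2 rRNAs had log2 fold changes in the WT line of 0.16 (SE 0.26, adjusted p = 1.000) for MT-RNR1 and 0.04 (SE 0.22, adjusted p = 1.000) for MT-RNR2. The 12 plus-strand mRNAs lay between −0.20 (MT-ND4) and 0.11 (MT-ATP8). MT-ND6 was at 0.51 (SE 0.60, adjusted p = 1.000), and the largest value among the minus-strand tRNAs was that of MT-TQ, 0.76 (SE 0.60, adjusted p = 1.000). MT-TI, at 0.483 ± 0.485 CPM with doxycycline and 1.37 ± 0.834 CPM without (SD, n = 3 each), had the lowest value, -1.35 (SE 0.78, adjusted p = 1.000). The MT-TI libraries held 1, 10 and 2 counts with doxycycline and 12, 10 and 5 without, so its value rests on few reads. No member had doxycycline libraries all above or all below the controls, beside 1.5% of all genes above and 1.77% below.

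In the Y273F line no member and 0.0% of the genes tested passed with edgeR. At an unadjusted p under 0.05 there were 225 genes and 0 members. The count called was 0 by DESeq2 (232 genes under the unadjusted threshold) and 0 by limma-voom (223 genes). The median of the members was 0.11, with 18 of 21 above 0, and that of all genes 0.01, with 50.8% above 0. Without the 3 libraries that stood apart the members' median was 0.01. With 1 library left out it was 0.01 (without Y273F doxycycline 1) to 0.23 (without Y273F control 2). MT-RNR1 was at 0.09 (SE 0.26, adjusted p = 0.992), MT-RNR2 at 0.05 (SE 0.22, adjusted p = 0.997) and the 13 mRNAs between −0.08 (MT-ATP8) and 0.27 (MT-ND2). MT-TC had the largest value, 1.21 (SE 0.86, adjusted p = 0.992). MT-TT was the 1 member whose doxycycline libraries (3.11 to 5.63 CPM) lay above the controls (0.985 to 2.88 CPM), beside 5.03% of all genes, and the lowest control library held 3 counts of it.

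Between the lines, the WT effect of doxycycline minus the Y273F effect passed for no member and 0.0% of the genes with edgeR. At an unadjusted p under 0.05 there were 165 genes and 0 members. Neither other tool called a gene: the counts were 0 by DESeq2 (144 unadjusted) and 0 by limma-voom (161 unadjusted). The members' median was −0.15, with 16 of 21 below 0, and that of all genes −0.01, with 7147 of 13838 below 0. The members' median turned to 0.12 without the 3 libraries that stood apart.

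The Y273F control against the WT control compares the uninduced lines. No member and 0.0% of the genes passed with edgeR. There were 460 genes and 3 members (MT-CO2, MT-CO3 and MT-ND4) at an unadjusted p under 0.05. With library set as a term these were 1406 genes and 10 members. The count of members was 7 without WT control 1, and 1 without WT control 3 or without any 1 of the Y273F control libraries. By DESeq2 0 genes passed (481 unadjusted), and by limma-voom 0 (478 unadjusted). The median of the members was −0.33, with 18 of 21 below 0, and that of all genes −0.02, with 7358 of 13838 below 0. MT-CO2 was at 4123 ± 263 CPM in Y273F control and 5850.0 ± 720.3 CPM in WT control (SD, n = 3), a log2 fold change of -0.53 (SE 0.21, adjusted p = 0.994). For MT-CO3 the value was -0.43 (SE 0.15, adjusted p = 0.994), for MT-ND4 -0.60 (SE 0.25, adjusted p = 0.994) and for MT-ND1 -0.33 (SE 0.17, adjusted p = 0.994). In these 4 genes the Y273F control libraries all lay below the WT control libraries, as did 4.18% of all genes. MT-RNR1, at -0.06 (SE 0.26, adjusted p = 0.996), and MT-ND6, at 0.02 (SE 0.61, adjusted p = 0.998), were near 0. Without the 3 libraries that stood apart, WT control 2 among them, the members' median was −0.14, while MT-CO2 was at −0.52, MT-CO3 at −0.40, MT-ND4 at −0.70 and MT-ND1 at −0.14. The same WT control libraries serve this comparison and the WT doxycycline comparison.

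**Figure D5:**
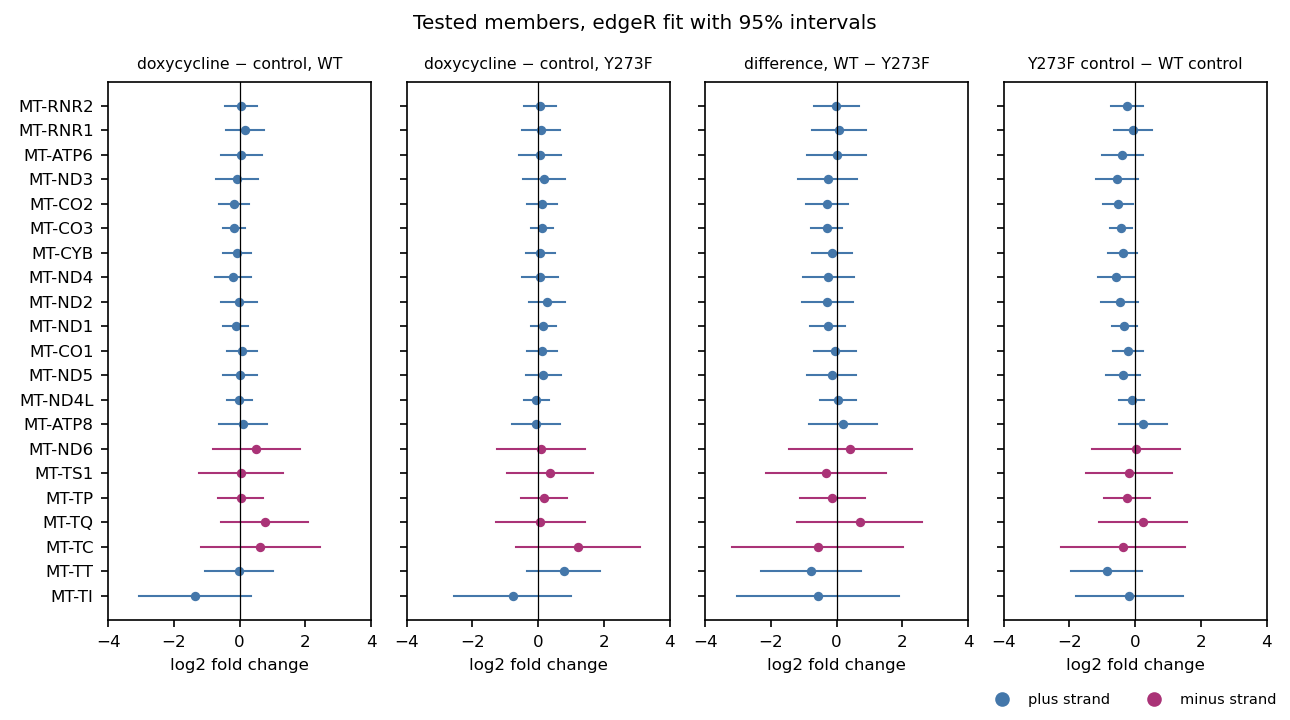
Log2 fold changes (horizontal axes) of the 21 tested members with 95% intervals from the edgeR fit in the 4 comparisons; plus-strand genes are blue and minus-strand genes purple. All but 3 intervals include 0, those of MT-CO2, MT-CO3 and MT-ND4 in Y273F control against WT control, and no value passed after adjustment over all genes.

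Nuclear genes serve the same system, and 4 lists of them were read beside the members. Genes of mitochondrial transcription and DNA maintenance (25 of 26 tested, such as SSBP1, RNASEH1 and TFAM) had no gene past the test in any of the 4 comparisons. The same held for 40 of 41 genes of mitochondrial RNA processing, tailing and decay (such as SLIRP, LRPPRC and LACTB2), for 75 of 78 mitochondrial ribosomal proteins (such as MRPL51, MRPS16 and MRPS35) and for 73 of 74 nuclear subunits of complexes I, III, IV and V (such as UQCRB, ATP5F1B and ATP5F1E). In the WT line with doxycycline the medians of these lists were 0.03, 0.06, 0.01 and 0.00, and in the Y273F line −0.10, 0.03, −0.03 and −0.04. In the Y273F control against the WT control they were 0.09, 0.03, 0.03 and 0.02, beside −0.33 for the mitochondrially encoded genes.

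By library set, the nuclear subunits and the mitochondrially encoded mRNAs lay on different sides of 1 in set 2/6/10 against set 1/5/9. There, 13 of 13 mitochondrial mRNAs had a ratio of means above 1, with a median of 1.34. Of the nuclear subunits 9 of 73 did, with a median of 0.847, and of all genes tested 6602 of 13838. Of the nuclear subunits 42 were lower without overlap and 1 higher, and of the mitochondrial ribosomal proteins 33 of 75 were lower and 4 higher, beside 28.1% and 26.4% of all genes. Of the 40 genes of RNA processing, tailing and decay 10 were higher and 10 lower, with a median ratio of 0.958. LACTB2 among them, an endoribonuclease of the mitochondrial matrix singled out after its values were seen, had means of 190 CPM in set 2/6/10 and 77.3 to 93.6 CPM in the other sets. In set 2/6/10 against set 4/8/12 the median ratio was 1.01 for the mitochondrial mRNAs and 0.898 for the nuclear subunits. There, 7 of 13 mitochondrial mRNAs were above 1, beside 7157 of 13838 genes. In set 4/8/12 against set 3/7/11, where the minus-strand members also differed, 1 nuclear subunit was higher and 3 were lower, beside 9.3% of all genes lower, with a median ratio of 0.989.

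Nuclear copies of mitochondrial sequence bear on how reads were assigned. Of 404 such genes in the files, 25 had counts and 4 had a mean of at least 5 CPM. With doxycycline, the 6 tested had a median log2 fold change of −0.36 in the WT line and −0.02 in the Y273F line. In the Y273F control against the WT control all 6 were below 0, with a median of −0.53. None passed the test in these comparisons. MTATP6P1 was at 95.4 to 233 CPM, with its highest value in WT doxycycline 1, where MT-ATP6 was highest too. MTCO1P12 was at 32.7 to 69.1 CPM and MTCO2P12 at 6.02 to 64.3 CPM. Reads of near-identical copies cannot be told apart from those of the mitochondrial gene where they match both. The levels of MT-ATP6, MT-CO1, MT-CO2, MT-ND1 and their copies are therefore uncertain. MTND1P23, singled out after its values were seen, was at 379 CPM in WT control 1 and 265 CPM in Y273F control 3, both of set 1/5/9, and at 1.40 to 4.54 CPM in the other 10 libraries.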

How the data were processed

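Polyadenylated RNA of 12 cultures was made into QuantSeq FWD V2 libraries, per the labels' protocols. Reads were aligned with STAR to GRCh38.p14, per the submitters' processing notes. For the STAR version, annotation release and molecular identifiers: not given in the sources used here. Whole-number counts of reads per gene were deposited in each library's file (unstranded, transcript-strand and opposite-strand columns), and as a table merged by symbol. All 37 MT- rows of the merged table equal the transcript-strand rows, which were used. Reads given to no gene, 35.5% to 43.2% of a library, were left out of totals.

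CPM are counts scaled to 1000000 gene counts. Genes of all classes were filtered with filterByExpr (minimum count 10), scaled with TMM factors and tested by quasi-likelihood in edgeR 4.0.16 under R 4.3.3, in 1 model of the 4 groups taken from the titles, with Benjamini-Hochberg adjustment over all 13838 genes. The alternatives were other scaling factors (DESeq2 size factors, upper quartile, TMM without MT- rows), other count minimums, DESeq2 1.42.0, limma-voom (limma 3.58.1), terms for replicate number or library set, only the groups compared, unstranded or merged counts, and leaving out libraries. The test was tested on simulated counts.

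Members were all MT- rows. The rRNA and mRNA genes and tRNA genes with a mean of at least 5 CPM are given by library, and of each other list the 3 genes of highest mean. LACTB2 among them was given by set for its values. Members, lists and library sets were chosen with earlier results of these data known. Intervals are Wilson intervals at 95%, and intervals and floors of 3 counts cover counting error only. Coordinates and sequences are those of GENCODE release 29 on GRCh38.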

Additional observations from a re-analysis of the deposited data

How the results depend on the processing

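No mitochondrially encoded gene passed under any alternative, and the lowest adjusted p of a member was 0.112 (MT-CO2, Y273F control against WT control, library set as a term). The count of all genes called was 0 in the 4 comparisons. With library set as a term, a grouping chosen with results of these data known, it was 1 in the Y273F line (ENSG00000197149). Leaving out each library in turn gave 0 genes in the WT line and 0 to 1 in the other 3 comparisons. The genes differed: SLX1B without Y273F control 2 (in the Y273F line and between the control groups), then RPL32P18 where Y273F doxycycline 2 was left out and FKBP1C where Y273F doxycycline 3 was (both in the Y273F line and between the lines' effects). Replicate numbers did not pair the libraries: of 18 same-numbered pairs 4 had a correlation of deviations over 0.1 (−0.80 to 0.61), and 2 of 12 libraries correlated best with their own number. With the replicate block, 0 genes were called in each comparison, and the members' medians were 0.01, 0.11, −0.16 and −0.33. The median of the members changed sign in the WT line (−0.17 to 0.26 with 1 library left out) and there also with upper-quartile factors (−0.01), limma-voom (−0.01) and unstranded counts (−0.02). With library set as a term it was −0.12 in the WT line and −0.07 in the Y273F line, and between the lines' effects it was −0.33 to 0.06 with 1 library left out. In Y273F control against WT control it stayed below 0 (−0.48 to −0.14 with 1 library left out, −0.14 without WT control 2). From unstranded counts the mitochondrial share was 4.11% in set 1/5/9 and 5.35% in set 2/6/10, against 3.78% and 4.97%, and minus-strand reads cannot be computed from them. Counting only the 9 plus-strand mRNA genes that share no read with a gene of the other strand, chosen after seeing the data, minus-strand CPM were 75.3 in set 1/5/9, 191 in set 2/6/10, 75.4 in set 3/7/11 and 154 in set 4/8/12, fewer by construction than the 244, 628, 243 and 546 over all 37 genes. At 3 counts, 0.134 to 1.07 CPM, tRNA genes below 5 CPM rest on few reads.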

Other observations

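Relative to all mitochondrial counts, which leaves the size of the mitochondrial share out, the members that separated sets 2/6/10 and 4/8/12 from the other sets without overlap were MT-TQ, MT-TC and MT-ND6 upwards and MT-CYB downwards. MT-ND6 made up 0.0916% of mitochondrial counts on average in set 2/6/10 and 0.0970% in set 4/8/12, against 0.0465% in set 1/5/9 and 0.0412% in set 3/7/11. MT-CYB made up 5.93% and 6.13% against 6.46% and 6.65%. MT-RNR1 was 4.60% in set 1/5/9, 5.22% in set 2/6/10, 4.02% in set 3/7/11 and 5.41% in set 4/8/12, with overlap.

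Without regard to strand, 9 of the 27 members with transcript-strand counts were listed at 0, 5 of them on the minus strand. MT-TS1 had 2612 counts over the 12 libraries on its own strand and MT-TQ 861, and both had 0 in the unstranded column. MT-TC, with 658, kept all of its reads there.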
